A study of Homo sapiens with 6 samples.

Results

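The Kruppel-like factors (KLFs) are transcription factors, and the 10 described here are KLF2, KLF3, KLF4, KLF5, KLF6, KLF7, KLF9, KLF10, KLF11 and KLF13. They were chosen by gene symbol, with 1 probe set per gene (the one with the highest mean over the 6 arrays), and all 10 were measured among the 18417 genes tested. RNA came from A375, an established human melanoma cell line that carries the BRAF V600E change, which keeps the BRAF kinase active. The compared groups were 3 arrays of cells given 10 µM vemurafenib, an inhibitor of that kinase, and 3 arrays of cells given the vehicle, 0.1% DMSO, each for 24 h. The cells of the 3 replicates came from separate stocks on separate days, and all arrays are from 1 cell line, so no other melanoma is represented.

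KLF proteins bind GC-rich and CACCC-like DNA through zinc fingers at their C-terminal end, and their N-terminal parts differ. KLF2, KLF4, KLF5, KLF6 and KLF7 are mostly described as activators. KLF3 recruits the corepressor CtBP, and KLF9, KLF10, KLF11 and KLF13 recruit the corepressor SIN3A. Several KLF genes respond fast to growth factors, hormones or stress, and family members can compete for the same sites.

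With vemurafenib, KLF4, KLF6 and KLF11 fell, KLF3, KLF7, KLF9 and KLF13 rose, and KLF2, KLF5 and KLF10 did not pass the test. KLF4 showed the largest change, 2.06-fold lower, and the 4 rises ranged from 1.26-fold to 1.72-fold. A gene was called when its adjusted p was under 0.05 in limma, a linear model test across all genes, with Benjamini-Hochberg adjustment. By this rule 7 of the 10 KLF genes were called, against a background of 45.5% of all genes tested. Among brighter genes the background was higher: without the dimmest 25% of genes 56.3% were called, with 7 of the KLF genes, and without the dimmest 50%, where KLF4 was no longer tested, 64.7%, with 6 of the KLF genes. The 4 rises stand beside 23.2% of all genes called higher, and the 3 falls beside 22.2% called lower. For the same 7 genes the 3 vemurafenib arrays lay wholly apart from the 3 vehicle arrays, as they did for 55.4% of all genes. The median change of the 10 genes was -0.03 and that of all genes -0.05, both on the log2 scale. The median size of change, whatever its direction, was 0.55 for the KLF genes and 0.20 for all genes. The value for all genes includes the dimmest 25%, where none of the KLF genes lay, so these medians are not matched for brightness.

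The values are log2 levels as deposited, and a change is vemurafenib minus vehicle on that scale, with its standard error (SE). Levels of different genes come from different probes and are not compared with each other. Array medians lay between 7.69 and 7.73, correlations between arrays over all genes ranged from 0.964 to 0.998, and array data carry no read depth. RNA per cell and the number of cells of a state cannot be told apart in such bulk samples. As a guide to dim signals, the dimmest 25% of genes reached up to 6.87, and the median level of 341 genes of olfactory receptors, little used in such cells, was 5.50. All 10 KLF genes had group means above 6.87 in both groups.

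**Figure D1:**
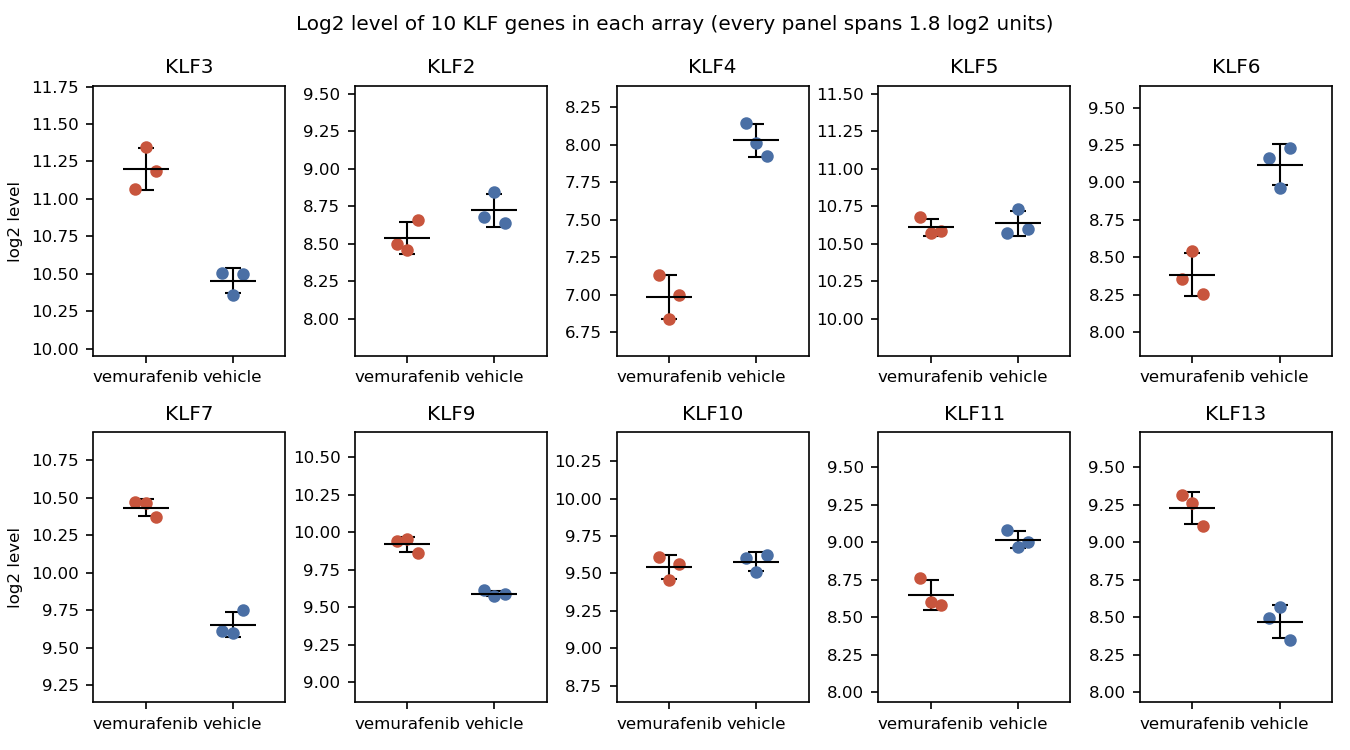
Log2 level (vertical axis) of each of the 10 KLF genes in the 3 vemurafenib arrays (left, red) and the 3 vehicle arrays (right, blue), with horizontal lines for the mean and bars for the SD. The groups lie apart in 7 panels and overlap for KLF2, KLF5 and KLF10.

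Among the members described as activators, KLF4 changed most. KLF4 is a zinc-finger factor of epithelial differentiation and a reprogramming factor for stem cells. Its level was 7.13, 6.83 and 6.99 in the vemurafenib arrays, against 8.15, 8.01 and 7.93 in the vehicle arrays. Every vemurafenib array lay below every vehicle array, and 1 of them, replicate 2, lay just below 6.87. KLF4 averaged 6.99 ± 0.15 with vemurafenib and 8.03 ± 0.11 with vehicle (SD, n = 3 each), a log2 change of -1.04 (SE 0.09) with a limma adjusted p of 3.22e-06. By size of change it ranked 963 of the 18417 genes, and it was the only one of the 10 called at 2-fold or more, where 5.69% of all genes were so called and 2.62% were so called and lower. Its change stood at -0.97 without vemurafenib replicate 2 and -0.98 without vehicle replicate 1, under 2-fold in both.

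KLF6, a factor induced by injury and growth signals, also fell. Its level was 8.36, 8.54 and 8.26 with vemurafenib, against 9.16, 8.97 and 9.23 with vehicle. The groups did not overlap, and the gap between them exceeded the range within either group. KLF6 averaged 8.38 ± 0.14 with vemurafenib and 9.12 ± 0.14 with vehicle (SD, n = 3 each), which was 1.66-fold lower, a log2 change of -0.73 (SE 0.09) with a limma adjusted p of 6.60e-05.

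KLF7, a close relative of KLF6 that promotes neurite growth in mouse neurons, moved the other way. Its level was 10.47, 10.46 and 10.37 with vemurafenib, against 9.61, 9.60 and 9.75 with vehicle. All vemurafenib arrays were higher than all vehicle arrays. KLF7 averaged 10.43 ± 0.06 with vemurafenib and 9.65 ± 0.08 with vehicle (SD, n = 3 each), which was 1.72-fold higher, a log2 change of 0.78 (SE 0.07) with a limma adjusted p of 6.14e-06. The changes of KLF7 and KLF6 differed by 1.51 on the log2 scale. The exact permutation test on the within-array difference, 2-sided, gave p = 0.1, the smallest that 3 against 3 arrays allow. The groups of both genes lay apart in opposite directions, so this outcome was fixed in advance and adds nothing to their calls.

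KLF2, which keeps endothelial cells and T cells quiescent, changed by -0.18 (SE 0.08) and was not called, with a limma adjusted p of 0.0997. Its level was 8.50, 8.46 and 8.66 with vemurafenib, against 8.68, 8.85 and 8.64 with vehicle, so the groups overlapped through replicate 3 of each. Without vemurafenib replicate 3 it was called, at a log2 change of -0.24 (limma adjusted p 0.0418). It was also called with arrays centred on the median of the named genes (-0.24, limma adjusted p 0.0340) and with array weights (-0.17, limma adjusted p 0.0491). KLF5, a growth-promoting factor of epithelial cells, stood at 10.61 ± 0.06 with vemurafenib and 10.63 ± 0.09 with vehicle (SD, n = 3 each). Its change of -0.03 had a 95% interval from -0.19 to 0.14 and a limma adjusted p of 0.806. The changes of KLF4 and KLF2 differed by -0.86, with an exact permutation p = 0.1, again the smallest possible.

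KLF3, which represses genes together with CtBP, rose. Its level was 11.07, 11.35 and 11.19 with vemurafenib, against 10.51, 10.36 and 10.50 with vehicle. The groups lay apart. KLF3 averaged 11.20 ± 0.14 with vemurafenib and 10.46 ± 0.08 with vehicle (SD, n = 3 each), which was 1.68-fold higher, a log2 change of 0.74 (SE 0.09) with a limma adjusted p of 2.89e-05. KLF3-AS1, a noncoding RNA named for its antisense position to KLF3 and looked up after the KLF3 values were seen, changed by 0.19 (SE 0.07, limma adjusted p 0.0516) and was dim, at 6.21, 6.18 and 6.18 with vemurafenib, against 5.90, 6.07 and 6.04 with vehicle. Of the other CtBP-binding genes, KLF12 changed by 0.20 (limma adjusted p 0.0340), and its groups lay apart. Its call was lost with the fixed replicate block, with centring on the median of the named genes and in every fit with 1 array left out except that without vehicle replicate 3 (limma adjusted p up to 0.128). KLF8, the other such relative, stood at a dim 5.66 with vemurafenib and 5.74 with vehicle.

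The 4 members that recruit SIN3A divided: KLF9 and KLF13 rose, KLF11 fell and KLF10 was not called. KLF13, first described as a late activator of the chemokine gene CCL5 in T cells, stood at 9.31, 9.26 and 9.11 with vemurafenib, against 8.49, 8.57 and 8.35 with vehicle. These groups lay apart, and KLF13 was 1.69-fold higher with vemurafenib, a log2 change of 0.76 (SE 0.08) with a limma adjusted p of 2.00e-05. KLF13 alone of the 10 had a second probe set with its name, and the pair disagreed. That other probe set, annotated to a single cDNA, was dim, at 6.58 ± 0.11 with vemurafenib and 6.70 ± 0.07 with vehicle (SD, n = 3 each), and its change of -0.12 was not called (limma adjusted p 0.228 over all probe sets). With both probe sets averaged the change of KLF13 was 0.32 (limma adjusted p 0.00394).

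KLF9, induced by thyroid hormone and glucocorticoids, stood at 9.94, 9.96 and 9.86 with vemurafenib, against 9.61, 9.57 and 9.59 with vehicle. The vehicle arrays were nearly level and all lay below the vemurafenib arrays. KLF9 was 1.26-fold higher, a log2 change of 0.33 (SE 0.07) with a limma adjusted p of 0.00210. The change of KLF13 exceeded that of KLF9 by 0.43 on the log2 scale, with an exact permutation p = 0.1, the smallest the design allows. This gap rests on the brighter KLF13 probe set. With both KLF13 probe sets averaged its change was 0.32, close to the 0.33 of KLF9.

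KLF11, also known as TGF-beta inducible early gene 2, stood at 8.76, 8.60 and 8.58 with vemurafenib, against 9.08, 8.97 and 9.004 with vehicle. The groups lay apart, and KLF11 was 1.29-fold lower, a log2 change of -0.37 (SE 0.08) with a limma adjusted p of 0.00204. KLF10, its closest relative and itself inducible by TGF-beta, stood at 9.61, 9.46 and 9.56 with vemurafenib, against 9.60, 9.51 and 9.62 with vehicle. Its groups overlapped almost fully, and its change of -0.04 had a 95% interval from -0.20 to 0.13 (limma adjusted p 0.713). The changes of KLF11 and KLF10 differed by -0.33, with an exact permutation p = 0.1, the smallest possible. After Benjamini-Hochberg adjustment over the 4 pairs of relatives compared, each exact permutation p stayed at 0.1.

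**Figure D2:**
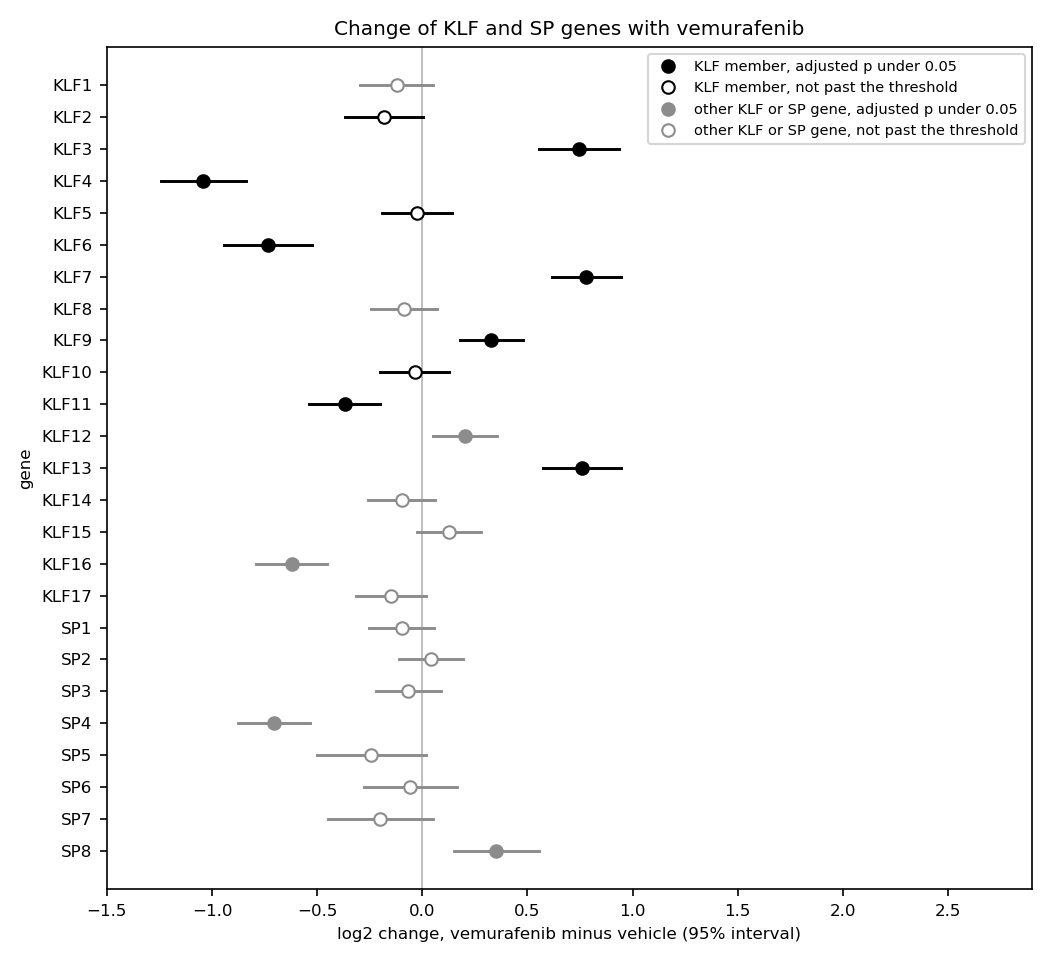
Log2 change with vemurafenib (horizontal axis, points with 95% intervals) of the 10 KLF genes (black) and 15 other KLF and SP genes (grey), filled where the limma adjusted p was under 0.05. KLF4 lies farthest to the left at -1.04 and KLF7 farthest to the right at 0.78.

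Of 15 other KLF and SP genes measured, 2 rose, 2 fell and 11 were not called, with a median change of -0.10. The share called was 26.7%, against 45.5% of all genes. KLF12 and SP8 were the 2 that rose, and the rises numbered 1 with the fixed replicate block, with centring on the median of the named genes, without the dimmest 50% of genes and in all fits with 1 array left out except that without vehicle replicate 3. SP4, a neuronal relative of SP1, fell by 0.70 on the log2 scale (limma adjusted p 1.94e-05) and KLF16 fell by 0.62 (limma adjusted p 4.84e-05), while SP8 rose by 0.35. The broadly expressed GC-box factors SP1 and SP3 changed by -0.10 and -0.07 and were not called. KLF15 and KLF17 changed by 0.13 and -0.15 and were not called. Sorted by corepressor, with KLF15 and KLF17 in no class, the SIN3A-binding genes had 2 higher, 2 lower and 2 not called of 6, the CtBP-binding genes 2 higher of 3, and the activators, KLF1 included, 1 higher and 2 lower of 6. Neither direction was shared by all members of any of these classes.

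The promoters of the genes that fell are shown because each gene had a window with a motif that most windows lack. RefSeq windows on GRCh38.p14, from 250 bases before an annotated start to 50 after it, were at hand for 8 of the 10 genes, 13 windows in all. KLF3, which rose, and KLF10 had no window. KLF4 (chr9:107489720-107490019, minus strand), KLF6 (chr10:3785160-3785459, minus strand) and the first window of KLF11 (chr2:10043579-10043878, plus strand) follow 5′ to 3′, with the E-box CACGTG in capitals.
KLF4: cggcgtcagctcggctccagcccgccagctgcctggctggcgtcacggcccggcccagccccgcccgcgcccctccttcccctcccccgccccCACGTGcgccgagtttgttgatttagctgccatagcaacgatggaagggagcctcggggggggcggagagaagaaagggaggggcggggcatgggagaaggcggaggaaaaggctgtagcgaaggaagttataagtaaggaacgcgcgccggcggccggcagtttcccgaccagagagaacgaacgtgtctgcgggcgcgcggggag
KLF6: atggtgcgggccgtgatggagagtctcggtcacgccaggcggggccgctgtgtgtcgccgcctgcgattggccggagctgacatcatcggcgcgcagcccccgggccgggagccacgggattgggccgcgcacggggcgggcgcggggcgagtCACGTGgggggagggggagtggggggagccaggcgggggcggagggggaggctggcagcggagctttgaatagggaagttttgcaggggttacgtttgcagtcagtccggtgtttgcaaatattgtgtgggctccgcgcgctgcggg
KLF11: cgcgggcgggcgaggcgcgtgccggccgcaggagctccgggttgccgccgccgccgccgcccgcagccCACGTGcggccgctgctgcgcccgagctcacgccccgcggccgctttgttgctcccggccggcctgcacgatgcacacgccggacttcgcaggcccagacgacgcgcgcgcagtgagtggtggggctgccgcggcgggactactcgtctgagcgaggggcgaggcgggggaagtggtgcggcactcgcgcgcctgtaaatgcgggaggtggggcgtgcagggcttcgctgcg

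The E-box, the sequence bound by MYC with MAX and by other basic helix-loop-helix factors, was in 3 of 4 windows of the genes that fell, in 1 of 6 windows of those that rose (the fourth of KLF7) and in 0 of 3 windows of those not called, against 7.26% of the 35116 windows in the table. Windows are not separate genes: of the 6 windows of genes that rose, 4 were of KLF7. Counted from the annotated start, the first base of the E-box lay at -157 in KLF4, -97 in KLF6 and -182 in KLF11. These windows had 69.0%, 70.7% and 77.3% G and C, against a median of 58.7% for all windows. Those of the genes that rose had 56.7%, 42.7%, 70% and 43% (KLF7), 32.7% (KLF9) and 78.3% (KLF13). Neither these windows nor the share of 7.26% were matched for G and C. The second KLF11 window had no E-box and held the cyclic AMP response element TGACGTCA, found in 1.85% of windows. This motif was picked out after the changes were known, among 10 searched on both strands, and it is a description of letters with no test. MYC itself fell by 1.35 on the log2 scale (limma adjusted p 2.83e-07), whereas MITF, another basic helix-loop-helix factor, rose by 0.75 (limma adjusted p 4.26e-06). A link between either change and the E-boxes was not tested.

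The window of KLF13 (chr15:31326585-31326884, plus strand) shows a promoter of a gene that rose, and that of KLF2 (chr19:16324576-16324875, plus strand) the element through which KLF2 is known to be driven. Capitals mark the GC box GGGCGG on either strand in KLF13 and a match to the MEF2 element in KLF2.
KLF13: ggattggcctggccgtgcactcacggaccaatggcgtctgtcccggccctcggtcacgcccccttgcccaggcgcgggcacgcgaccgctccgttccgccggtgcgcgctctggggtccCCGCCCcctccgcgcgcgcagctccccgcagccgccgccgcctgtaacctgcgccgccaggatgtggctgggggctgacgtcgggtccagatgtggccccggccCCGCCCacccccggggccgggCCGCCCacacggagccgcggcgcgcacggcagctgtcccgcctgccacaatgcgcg
KLF2: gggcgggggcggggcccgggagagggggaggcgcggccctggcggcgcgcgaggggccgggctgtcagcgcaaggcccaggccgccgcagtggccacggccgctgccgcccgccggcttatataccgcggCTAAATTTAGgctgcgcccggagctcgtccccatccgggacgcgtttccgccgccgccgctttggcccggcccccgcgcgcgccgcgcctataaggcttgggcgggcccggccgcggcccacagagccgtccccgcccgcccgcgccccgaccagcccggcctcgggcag

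KLF13 held 3 GC boxes, KLF2 6 and KLF4 4, whereas the KLF9 window, with 32.7% G and C, held no match to any of the 10 motifs. GC boxes were in 45.0% of all windows, and the median window had 58.7% G and C. The CACCC box, a site that KLF proteins themselves can bind, was in 59.9% of all windows, and among the members in both of KLF5, the first 3 of KLF7, that of KLF13 and the second of KLF11. The MEF2 element was in the KLF2 window, with its first base at -120, and in 0.572% of all windows, and the CArG box, bound by serum response factor, was in 1 KLF7 window and in 1.29% of all. The remaining motifs searched, AP-1 (TGANTCA, 7.71% of windows), FOXO (GTAAACA, 3.42%), ETS (CCGGAAG, 10.3%) and SMAD (GTCTAGAC, 0.202%), had no match in the members' windows. Matches may overlap, as do the cyclic AMP response element and a CACCC box in KLF11.

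**Figure D3:**
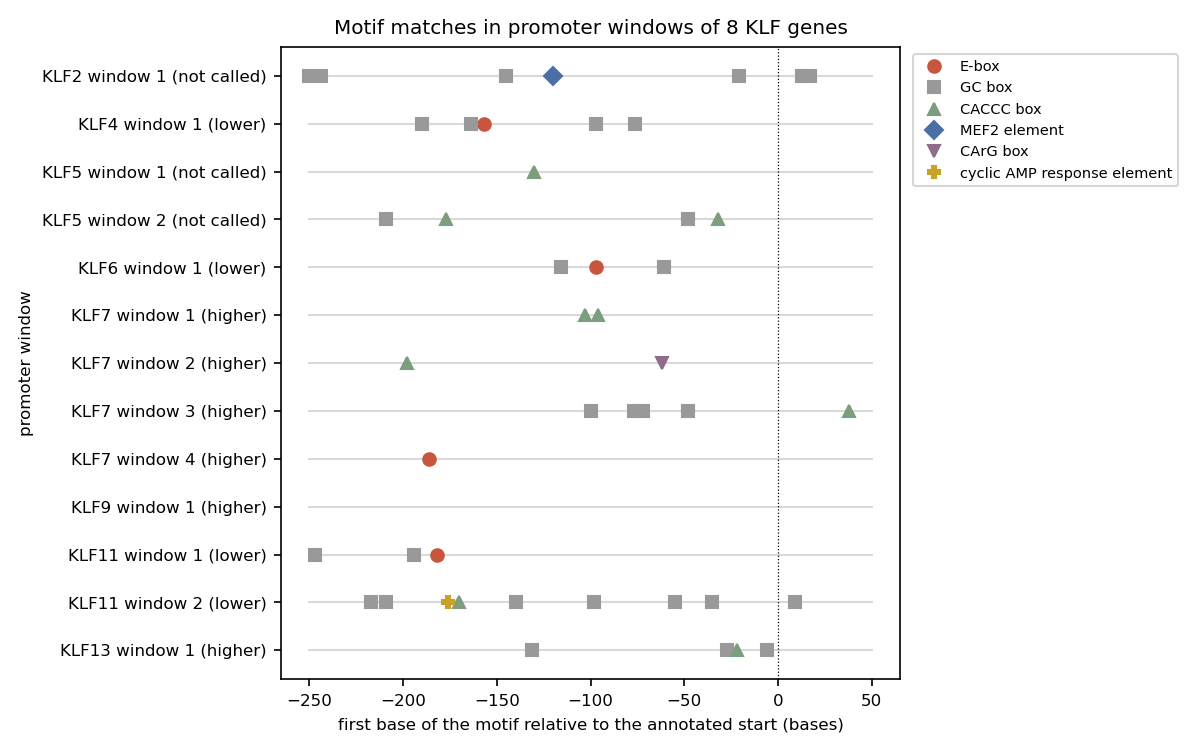
Position of motif matches (horizontal axis, first base in bases from the annotated start) in the 13 promoter windows of 8 KLF genes (rows, with the call of each gene). E-boxes (red circles) stand in the windows of KLF4 and KLF6, in the first of KLF11 and in the fourth of KLF7, and the KLF9 window is empty.

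Genes that control KLF genes were set beside them. The counts called in these and the later lists stand beside 45.5% of all genes called. That share was 56.3% without the dimmest 25% of genes and 64.7% without the dimmest 50%. In the MEK5-ERK5-MEF2 route, which switches on KLF2 and KLF4 in endothelial cells, 2 of 7 measured genes rose and 0 fell, with a median change of 0.13. MEF2C, a MADS-box transcription factor, averaged 11.89 ± 0.08 with vemurafenib and 9.80 ± 0.11 with vehicle (SD, n = 3 each), a rise of 2.09 on the log2 scale (limma adjusted p 6.16e-09). MAP2K5, the kinase MEK5, rose by 0.47 (limma adjusted p 0.00130), and MAPK7, the kinase ERK5, changed by -0.02 (limma adjusted p 0.842). MEF2C was higher in the same arrays in which KLF4 was lower and KLF2 was not called, and a link between them was not tested. Of 3 FOXO factors, which induce KLF2 in mouse T cells, FOXO4 rose by 0.83 (limma adjusted p 1.33e-05). FOXO1 changed by 0.18 and missed the threshold (limma adjusted p 0.0523), and without vemurafenib replicate 3 or without the dimmest 25% of genes 2 FOXO factors were called.

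Of 9 genes of glucocorticoid and thyroid hormone response, the signals known for KLF9, 5 rose and 1 fell (66.7% called). Their median change was 0.29. The receptors THRA and NR3C1 rose by 0.85 and 0.63 (limma adjusted p 1.19e-05 and 2.72e-05), and THRB changed by -0.35 (limma adjusted p 0.00395). The glucocorticoid-induced genes TSC22D3, SGK1 and PER1 rose by 0.81, 0.49 and 0.25, and KLF9 by 0.33. PER1 was not called without vehicle replicate 1 (highest limma adjusted p over its alternatives 0.0634). In the same list ZBTB16 and CEBPD changed by -0.19 and -0.11 and were not called (limma adjusted p 0.115 and 0.198). NR3C2 changed by 0.29 and was not called either (limma adjusted p 0.0521). A link between these genes and the rise of KLF9 was not tested. Of 11 TGF-beta pathway genes, the setting of KLF10 and KLF11, 4 rose and 3 fell (63.6% called), with a median change of 0.02. Among the rises, SKIL at 0.24 (limma adjusted p 0.0377) lost its call in 10 of 18 alternatives. These included 5 of 6 fits with 1 array left out (limma adjusted p up to 0.147). The 3 ligand genes TGFB1, TGFB2 and TGFB3 rose by 1.06, 1.04 and 0.90, whereas the receptor gene TGFBR1 fell by 0.36 and SMAD3, a transducer of the signal, fell by 0.64. KLF10 itself did not pass the test.

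Of 10 corepressors and coactivators of KLF proteins, 2 rose and 3 fell, with a median change of -0.02. KAT2B, an acetyltransferase, averaged 12.13 ± 0.13 with vemurafenib and 10.30 ± 0.02 with vehicle (SD, n = 3 each), a rise of 1.82 on the log2 scale (limma adjusted p 1.59e-08). The deacetylase gene HDAC2 changed by -0.48 and CTBP2, a partner of KLF3, by -0.24, both called, whereas CTBP1 and SIN3A changed by -0.07 and -0.13 and were not. CTBP2 lost its call in 4 of 6 fits with 1 array left out, all but those without vemurafenib replicate 1 or vehicle replicate 2 (limma adjusted p up to 0.0912). The count of 5 dropped to 2 without vemurafenib replicate 2, vehicle replicate 1 or vehicle replicate 3. Of 9 genes for KLF protein turnover 1 rose and 1 fell: FBXW7, a ubiquitin ligase adaptor that targets KLF2 and KLF5, rose by 0.90 (limma adjusted p 1.24e-05) and SMURF2, another ligase, fell by 0.48 (limma adjusted p 0.000453). The list's median change was 0.15. WWP1, a ligase for KLF2 and KLF5, changed by 0.06 and was not called.

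KLF4 and KLF6 are often counted among immediate early genes. Of 11 other such genes 3 rose and 6 fell (81.8% called, against 45.5% of all genes), with a median change of -0.35. IER3, FOSL1 and EGR1, with changes of -2.64, -1.88 and -1.07, were among those that fell, and JUN rose by 2.24, so this set too moved both ways. Of 5 measured partners of KLF4 in pluripotency 1 rose and 2 fell. SOX2 rose by 2.13 while MYC, used with KLF4 in reprogramming, fell by 1.35. LIN28A, dim in both groups, changed by -0.34 (limma adjusted p 0.0235), but its groups overlapped. That call was lost without vemurafenib replicate 1 or 2 or without vehicle replicate 2 or 3 (limma adjusted p up to 0.0959), which left 1 fall in the list. The list's median change was -0.14.

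Of 23 genes reported as KLF targets in other cells, 4 rose, 8 fell and 11 were not called, with a median change of -0.03. Called were thus 52.2%, against 45.5% of all genes. CDKN1A, the CDK inhibitor gene that KLF4 and KLF6 can induce, rose by 0.50 (limma adjusted p 0.000139), while KLF4 and KLF6 fell. LGALS3, which KLF3 represses in mouse cells, rose by 1.12 (limma adjusted p 1.10e-06) beside the higher KLF3. L1CAM, an adhesion gene linked to KLF7 in mouse neurons, rose by 0.77 (limma adjusted p 1.73e-05), as KLF7 did. GAP43, in the same list, changed by 0.09 and was not called (limma adjusted p 0.397). CCND1 and CDK1, cell cycle genes under many regulators, fell, with changes of -2.49 and -1.71. CCL5, the KLF13 target, changed by -0.12 at a level of 6.79 with vemurafenib and 6.92 with vehicle and was not called. Links between these target genes and the KLF changes were not tested.

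**Figure D4:**
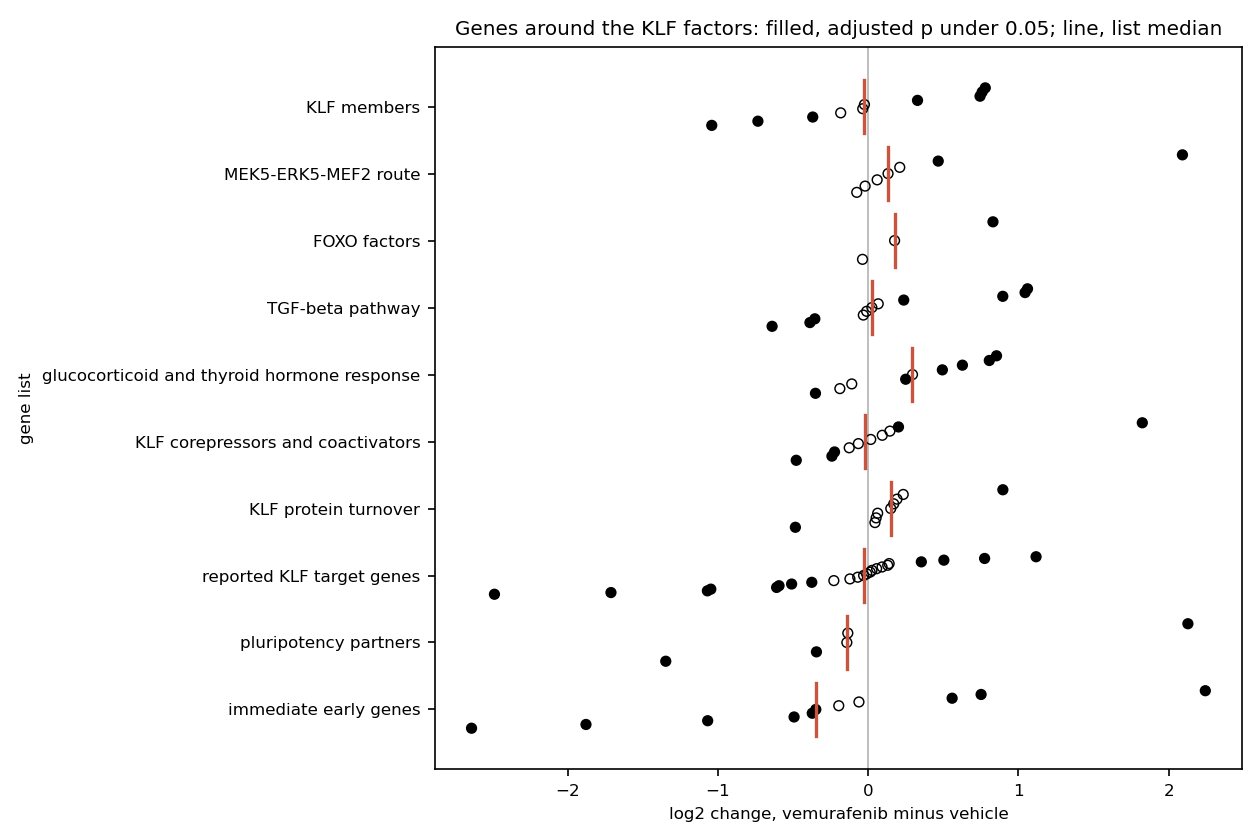
Log2 change with vemurafenib (horizontal axis) of the 10 KLF genes and of the genes in 9 surrounding lists (rows), filled where the limma adjusted p was under 0.05, with a red line at each list's median. JUN, SOX2 and MEF2C lie beyond 2 log2 units to the right, and IER3 and CCND1 beyond 2 to the left.

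The genes whose 6 array values, centred on their own mean, came closest to a member were found for the 4 members with the largest changes. TM4SF1 and STC2 followed KLF4 most closely, with root mean square differences of 0.040 and 0.044 log2 units. SLC39A11 and PCMTD1 came closest to KLF7 (0.016 and 0.020), CITED2 and ZNF404 to KLF13 (0.041 and 0.044) and SEMA3E and ZCCHC9 to KLF3 (0.029 and 0.029). All 8 rest on 6 arrays in 2 groups, so likeness here means mostly a change of like size.

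Markers of cell identity were read in the same arrays. Of 10 melanoma markers 7 had means above the dimmest 25% of genes, among them SOX10, S100B and MITF, while MLANA, TYR and PMEL were dim. Of these 10, 6 rose and 0 fell, beside 23.2% of all genes called higher and 22.2% called lower. Among markers of other cell types, 4 of 7 for keratinocytes, 3 of 8 for endothelial cells, 3 of 7 for leukocytes and 4 of 8 for fibroblasts lay above that bound. The summed log2 level of the fibroblast list ran from 57.6 to 58.2 in the vemurafenib arrays and from 53.7 to 54.4 in the vehicle arrays, with DCN, LUM and FAP called higher. With vehicle DCN and FAP were dim, at 5.46 and 5.52, and with vemurafenib they stood at 6.92 and 7.12. The endothelial sum ran from 53.9 to 54.6 with vemurafenib and from 55.2 to 56.1 with vehicle, with 4 of 8 markers called lower. The keratinocyte sum ran from 48.8 to 50.1 with vemurafenib and from 48.9 to 49.7 with vehicle, and the leukocyte sum from 46.8 to 47.3 with vemurafenib and from 48.0 to 48.7 with vehicle. Among the leukocyte markers LYZ, at 9.54 with vemurafenib and 10.29 with vehicle, and CD14 were called lower. The part of these markers in the KLF changes was not tested.

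**Figure D5:**
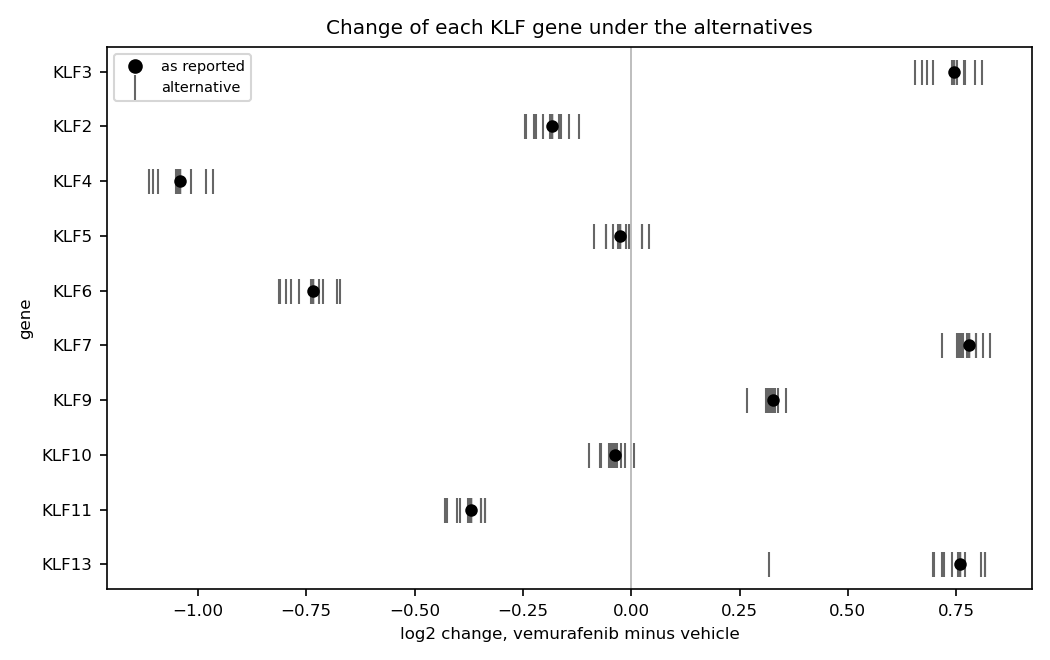
Log2 change with vemurafenib (horizontal axis) of each of the 10 KLF genes as reported (points) and under the alternative settings (ticks). The ticks of the 7 called genes stay on 1 side of 0, and the tick of KLF13 at 0.32 is the mean of its probe sets.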

How the data were processed

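Single-colour Affymetrix arrays gave the deposited values, in log2 units for each probe set, which the authors made with RMA and Partek per the submitters' processing notes, which give no versions. No source used here gives the summarization level, the batch handling or a genome build. RMA usually equalizes the arrays' distributions, which would hide a change in total RNA per cell and shrinks large folds.

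The 6 arrays had a value for each of 33297 probe sets. Of these 19460 carried 1 gene symbol in the platform annotation, 1754 several (not used) and 12083 none there. For the 769 genes with more than 1 probe set the one with the highest mean was kept, which left 18417 genes, with no filter on dim ones.

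Groups came from the sample titles. limma 3.58.1 (R 4.3.3; lmFit and eBayes, group as the only term, 2-sided, Benjamini-Hochberg over all genes, threshold 0.05) gave changes, standard errors and 95% intervals, with 7.08 prior degrees of freedom. The design pairs dishes by stock and day. A pair letter is given for a single array only, so the labels do not tie these pairs to array numbers. Deviations of same-numbered arrays correlated at 0.14, -0.18 and -0.25. Those of differently numbered arrays ran from -0.14 to 0.28, with 0.28 for vemurafenib replicate 3 and vehicle replicate 2. The next highest was 0.22, for vemurafenib replicate 2 and vehicle replicate 3. The pairs were thus not known, and no pairing was used. The pairs of relatives were compared by exact permutation over arrays. Scripts were tested on simulated data. Python 3.11.15 with pandas 2.3.3, numpy 2.4.6 and matplotlib 3.10.9 was used for motifs and figures.

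The KLF genes, the 15 lists and the motifs were chosen with earlier results of these data known. Named were all 10 KLF genes, up to 4 called genes of each list by size of change, further list genes whose role bears on a member, and the 2 genes of most similar pattern for the 4 members with the largest changes. Alternatives covered the replicate block (fixed or random, statmod 1.5.0), scaling, dim genes, probe sets, the variance model, a threshold of 0.01 and each array left out. A few listed genes are not analysed here.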

Additional observations from a re-analysis of the deposited data

How the results depend on the processing

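The 7 called KLF genes kept their direction and their call in every alternative run that tested them (18 settings, or 17 for KLF4, which is not among the genes left without the dimmest 50%), and KLF5 and KLF10 were called in none. The highest limma adjusted p over these alternatives was 0.0129 for KLF11, 0.0117 for KLF9, 0.00394 for KLF13 and 0.000771 for KLF6. KLF2 ranged from -0.24 to -0.12, with limma adjusted p from 0.0340 to 0.277, and was called in 3 settings. With same-numbered arrays as a fixed replicate block the count of called genes was 7606, and as a random block 7923, against 8371 as reported. The KLF count stayed at 7 under both blocks, and neither changed a call of these 10 KLF genes, whereas the fixed block ended the call of KLF12. Both blocks went by array number, which the labels do not tie to the pairs, so other pairings were not covered. Leaving out 1 array gave 7218 to 8326 called genes. Centring on the median of the named genes, chosen after seeing the data, gave 9312 called genes, 3682 higher and 5630 lower, against 4281 higher and 4090 lower as reported, with 4 KLF genes higher and 4 lower. Without the dimmest 25% or 50% of genes, 2 FOXO factors were called against 1 as reported, and with 1 array left out 1 to 2. The corepressor and coactivator count of 5 ran from 2 to 5 with 1 array left out. Without the dimmest 50%, 1 pluripotency partner was called against 3, since 1 was then tested. The number of arrays, 3 per group, limits the precision.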
